A study of Mus musculus with 8 samples.

Results

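The genes described here encode the extracellular matrix and basement membrane: collagens, laminins, proteoglycans and matrix glycoproteins, together with the enzymes and the chaperone that prepare collagen for secretion. They were chosen by gene symbol from a list of 50 genes, and every probe set with such a symbol was taken. Of the 50 genes, 47 had at least 1 probe set annotated with that symbol alone, among 12393 genes with such a probe set on the array. Spp1, Efemp2 and Loxl2 were not analysed here.

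The RNA came from TTE3, a mouse Sertoli cell line whose founding animals bore a transgene for the simian virus 40 large T-antigen in a form that heat inactivates. Every group therefore carried the T-antigen transgene, and the groups differed in the hours spent at 39 °C, which the labels call nonpermissive: 0, 6, 12 and 24 h. Each time had 2 arrays, 8 arrays in all, of the Affymetrix Mouse Expression Array 430A. The series' title names the question as the genes of cell differentiation induced by this temperature. The labels give no promoter for the transgene, no number of clones, no cell passage and no control without T-antigen at 39 °C, so heat, time in culture and the state of the T-antigen cannot be told apart. Nor do they say whether replicate arrays stem from different cultures. The p-values then measure only the spread between these arrays, which may be technical.

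Sertoli cells line the seminiferous tubule and rest on a basement membrane that they lay down together with the peritubular myoid cells around them. A basement membrane is a sheet in which a laminin network and a collagen IV network are tied together by nidogen and perlecan, whereas fibrillar collagens and fibronectin form the interstitial matrix outside it. Collagen chains are hydroxylated on proline and lysine in the endoplasmic reticulum, fold into a triple helix under the chaperone HSP47, and are cross-linked by lysyl oxidases after secretion.

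Values are probe set intensities in the signal units deposited by the authors, which had been scaled to nearly the same trimmed mean on every array (500.18 to 500.2). The median signals lay between 138 and 154.3, and replicate arrays correlated with r from 0.98 to 0.99 across probe sets (features of the same arrays, not replicates). Changes were tested with limma on log2(intensity + 22), on which scale the changes of dim genes are understated. A gene is represented by its brightest probe set, and a change was called at an adjusted p below 0.05 over 13576 tested probe sets. Scaled signals from bulk RNA do not tell fewer cells of a type from less RNA per cell. As a check of the labels, the inducible heat shock chaperone gene Hspa1a was at 269.9 and 307.2 before heating and at 3402.8 and 4085.4 after 6 h. Cdkn1a, a cell cycle inhibitor that p53 induces, was at 912.1 and 808.1 and then at 6203.8 and 6461.0. Large T-antigen is known to bind p53, and the T-antigen itself was not measured.

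The Sertoli identity of the line was only partly visible. Of 14 Sertoli marker genes on the array, 9 were bright enough to test, and Amh, Cldn11, Dhh, Fshr and Rhox5 were not. The transcription factor Gata4 was at 551.8 and 559.7 at 0 h and 596.5 and 574.4 at 24 h. Clu, a secreted glycoprotein abundant in Sertoli cells, rose by 1.44 on the log2 scale at 24 h (adjusted p = 3.63e-05). The summed signal of the 14 markers ran from 6804.1 to 6916.6 at 0 h and from 9272.7 to 10182.3 at 24 h. Of the 9 tested markers, 2 were called higher at 24 h and none lower (22.2%, beside 35.2% of all tested genes). Their median log2 change was 0.09, so the higher sum does not describe the list as a whole.

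In all, 33 of the 47 measured genes were bright enough to test and 14 were not. The untested genes were Col1a2, Col5a2, Lama1, Lama2, Lama4, Loxl1, Lum, Mfap2, Mfap5, Mgp, Nid1, Nid2, Postn and Vcan, whose brightest probe sets gave signals of 2.1 to 105 units. Their transcripts are not shown to be absent, only too dim for a test here. Among the tested genes 1, Col6a3, had time means under the brightness limit.

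Matrix genes moved in both directions, and at different times. Across the 4 times, 21 of the 33 tested genes passed the F-test, beside 42% of all 7707 tested genes and 40.1% of all tested probe sets. Against 0 h, 7 rose and 4 fell at 6 h, when 9.15% of all tested genes were called higher and 9.33% lower. At 12 h 10 rose and 5 fell, against backgrounds of 13.3% and 12%. The 10 include Col6a3, which was bright enough to test only through its 12 h arrays. At 24 h 11 rose and 4 fell, against backgrounds of 18.6% and 16.6%. The median log2 change of the 33 genes was 0.02 at 6 h, 0.15 at 12 h and 0.29 at 24 h, where the median of all tested genes was 0.01, 0.02 and 0.02. Called were thus 63.6% of the 33 genes in the F-test and 33.3%, 45.5% and 45.5% at 6, 12 and 24 h. Of all tested genes the shares were 42%, 18.5%, 25.2% and 35.2%. The shares of the list were the higher ones, but many genes of the array changed and the difference was not tested. When each array was centred on its own median, the median of all genes at 24 h moved by -0.10. The share of called probe sets that were higher then went from 50.5% to 40.4% at 12 h and from 52.0% to 37.5% at 24 h, while the matrix genes counted 10 higher and 5 lower at each of these times.

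**Figure D1:**
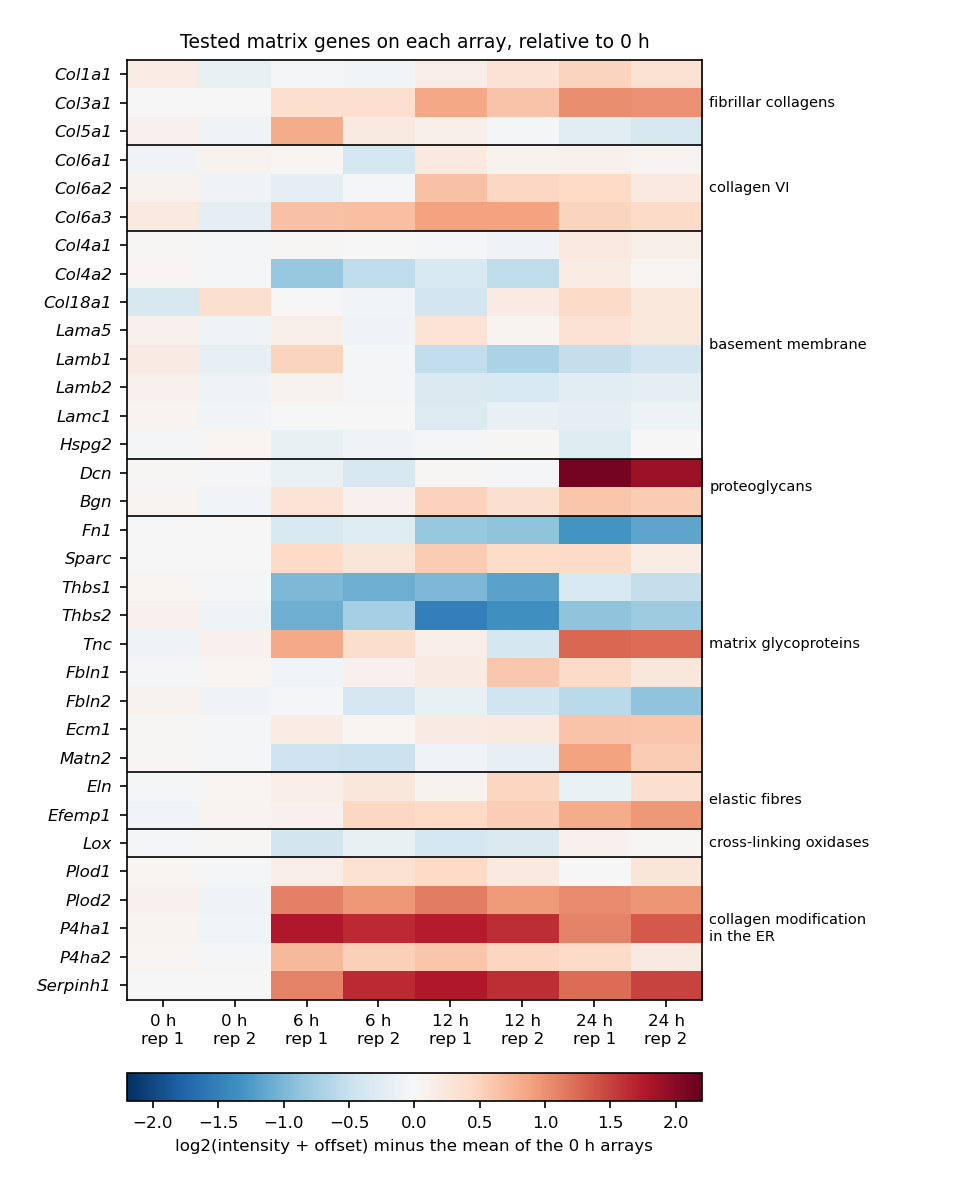
Log2(intensity + 22) of the 33 tested matrix genes on each of the 8 arrays, as the difference from the mean of the 0 h arrays, with genes in rows grouped by role and arrays in columns by hours at 39 °C. P4ha1, P4ha2, Plod2 and Serpinh1 are above 0 h on every later array, Fn1, Thbs1 and Thbs2 are below it on every later array, and Dcn stands apart from 0 h on the 24 h arrays only.

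Several genes that modify and fold collagen in the endoplasmic reticulum rose. All 5 on the list were tested. P4ha1, P4ha2, Plod2 and Serpinh1 rose at 6 h and at 12 h, and P4ha1, Plod2 and Serpinh1 also at 24 h, with none lower. Called were thus 80%, 80% and 60% of the 5, beside 18.5%, 25.2% and 35.2% of all tested genes. The median log2 change of the 5 genes was 1.03 at 6 h, 1.02 at 12 h and 1.01 at 24 h, where that of all tested genes was 0.01, 0.02 and 0.02.

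P4ha1 encodes a catalytic subunit of collagen prolyl 4-hydroxylase, whose product lets the triple helix stay folded at body temperature. Its signals were 377.8 and 345.5 at 0 h, 1285.0 and 1179.2 at 6 h, 1249.1 and 1165.4 at 12 h, and 792.4 and 954.7 at 24 h. All 6 later arrays were above both 0 h arrays, and the 24 h arrays lay between the 0 h arrays and those of 6 and 12 h. The rise was 3.27-fold at 6 h (log2 change 1.71 ± 0.12 SE, adjusted p = 8.36e-06), 3.21-fold at 12 h (adjusted p = 7.94e-06) and 2.33-fold at 24 h (adjusted p = 3.08e-05). Its other tested probe set rose at all 3 times too, by 1.13, 1.54 and 1.32 on the log2 scale. The drop from 12 to 24 h, of -0.46 ± 0.12 (adjusted p = 0.0438), was no longer called without any 1 array of 0, 12 or 24 h, and reached 0.296 without 24 h replicate 1. The same held with no filter (0.072), no variance trend (0.096) or the mean of the probe sets (0.0562).

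P4ha2 encodes an alternative catalytic subunit of the same enzyme. Its signals were 591.7 and 555.8 at 0 h, 953.5 and 837.9 at 6 h, 885.7 and 805.2 at 12 h, and 777.5 and 661.1 at 24 h. Every later array was above the 0 h arrays, but the rises were smaller than those of P4ha1. They came to 1.54-fold at 6 h (0.62 ± 0.12, adjusted p = 0.00625) and 1.46-fold at 12 h (0.54 ± 0.12, adjusted p = 0.00872), while the 24 h value of 0.31 did not pass (adjusted p = 0.0733). The 6 h call was lost without 0 h replicate 2 (adjusted p = 0.0619), and the 12 h call without 0 h replicate 2 (0.0753) or 12 h replicate 1 (0.0591); the other alternatives kept both, with adjusted p down to 0.00234 and 0.00312.

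Serpinh1 encodes HSP47, the collagen-specific chaperone of the endoplasmic reticulum and itself a heat shock protein. Its signals were 2013.5 and 2038.7 at 0 h, 4352.0 and 6384.7 at 6 h, 6910.6 and 6305.0 at 12 h, and 4796.0 and 5726.2 at 24 h. The 2 arrays at 6 h differed widely, yet every later array was far above either 0 h array. The rise was 2.58-fold at 6 h (1.37 ± 0.16, adjusted p = 0.000244), 3.23-fold at 12 h (adjusted p = 4.22e-05) and 2.57-fold at 24 h (adjusted p = 7.74e-05). A dimmer probe set of the gene, with 4911.9 and 5027.1 at 6 h, gave log2 changes of 1.59, 1.65 and 1.45.

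The lysyl hydroxylases Plod1 and Plod2 differed in their calls. Plod2, which hydroxylates lysines of the collagen telopeptides and so sets the type of cross-link, was at 755.4 and 655.1 at 0 h, 1538.6 and 1385.2 at 6 h, 1555.1 and 1358.8 at 12 h, and 1476.7 and 1403.7 at 24 h. It was raised to a nearly constant level, with folds of 2.04 (1.03 ± 0.12, adjusted p = 0.000223), 2.03 (adjusted p = 0.000158) and 2.01 (adjusted p = 7.69e-05). Its dimmer probe set gave 0.26 at 6 h, which did not pass (adjusted p = 0.389), and passed at 12 h with 0.63 and at 24 h with 0.80. Plod1, which acts on lysines within the helix, gave log2 changes of 0.24, 0.32 and 0.14, none of which passed (adjusted p = 0.325, 0.162 and 0.547). The difference between the 2 genes was not tested.

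**Figure D2:**
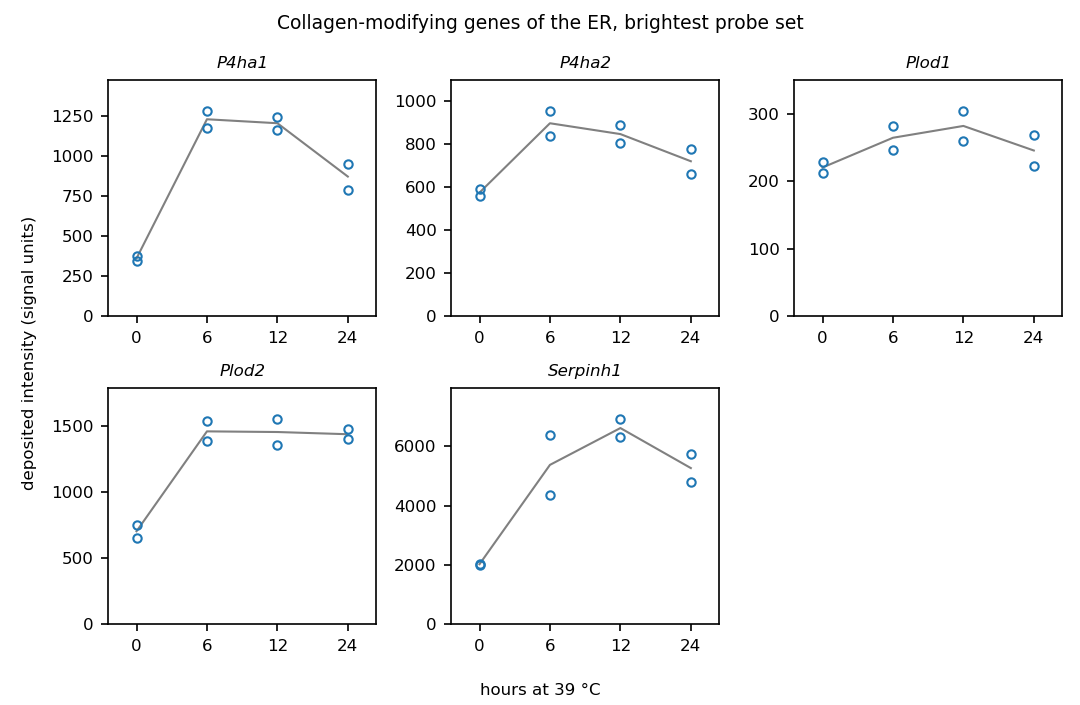
Deposited intensity, in signal units, of the collagen-modifying genes at 0, 6, 12 and 24 h at 39 °C. Points are single arrays and lines join the means of the 2 arrays of a time. P4ha1 runs from 345.5 to 377.8 at 0 h and from 1179.2 to 1285.0 at 6 h, and Plod2 stays between 1358.8 and 1555.1 at all later times.

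The promoters of 3 of these 4 genes were in the RefSeq table used here, and the 250 bases before each start site are shown because the genes rose together. They were searched on both strands for ACGTG and GCGTG, the core letters of hypoxia response elements, which are known from prolyl hydroxylase genes, and for pairs of heat shock units written GAANNTTC or TTCNNGAA. Capitals mark the hypoxia cores, which read CACGT or CACGC where they lie on the opposite strand. Sequences are from GRCm38.p6, 5′ to 3′ on the strand of the gene, for P4ha1 at chr10:59323046-59323295 on the plus strand, P4ha2 at chr11:54100674-54100923 on the plus strand and Serpinh1 at chr7:99353240-99353489 on the minus strand.
P4ha1: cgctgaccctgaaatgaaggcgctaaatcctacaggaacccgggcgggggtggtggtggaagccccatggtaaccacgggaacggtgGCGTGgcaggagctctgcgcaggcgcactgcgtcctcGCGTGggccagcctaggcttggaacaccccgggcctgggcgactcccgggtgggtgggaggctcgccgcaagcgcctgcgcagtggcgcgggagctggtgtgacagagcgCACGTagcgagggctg
P4ha2: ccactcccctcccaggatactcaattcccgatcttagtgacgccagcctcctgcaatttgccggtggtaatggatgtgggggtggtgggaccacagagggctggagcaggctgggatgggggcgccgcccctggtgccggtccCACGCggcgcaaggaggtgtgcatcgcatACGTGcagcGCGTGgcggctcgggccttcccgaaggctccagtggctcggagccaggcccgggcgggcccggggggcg
Serpinh1: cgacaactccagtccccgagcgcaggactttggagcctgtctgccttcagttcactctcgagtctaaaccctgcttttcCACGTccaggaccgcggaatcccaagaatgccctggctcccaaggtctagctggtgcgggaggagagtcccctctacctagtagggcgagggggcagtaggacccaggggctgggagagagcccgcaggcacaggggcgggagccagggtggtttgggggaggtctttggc

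The P4ha1 window held 1 ACGTG and 2 GCGTG, the P4ha2 window 1 ACGTG and 2 GCGTG, and the Serpinh1 window 1 ACGTG. Among 32851 promoter windows of this length, ACGTG occurred in 16.6%, GCGTG in 28.2% and both in 6.13%. Among the 32 matrix genes in the promoter table, ACGTG occurred in 7, GCGTG in 13 and both in 4, which were Efemp2, Fbln1, P4ha1 and P4ha2. Fbln1 passed no test against 0 h. Of the heat shock forms, GAANNTTC occurred in 6.69% of all windows and in 1 of the 32 matrix genes, Lama2. TTCNNGAA occurred in 7.17% of all windows and in 1 of the 32, P4ha2. The P4ha2 match reads TTCCCGAA, 52 to 45 bases before its start, in small letters above. No heat shock pair was found in the P4ha1 or Serpinh1 window. A match is a string of letters and not a measured binding site, and the windows reach no further upstream than 250 bases before the start.

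Fibrillar collagens, the main fibres of interstitial matrix, were tested for 3 of 5 genes. Col3a1 and Col1a1 were higher at 24 h, when 35.2% of all tested genes were called in either direction. None of the 3 was called lower against 0 h on its brightest probe set. Col3a1, the only chain of collagen III, was at 735.0 and 748.0 at 0 h, 969.7 and 964.7 at 6 h, 1353.5 and 1153.0 at 12 h, and 1532.4 and 1504.3 at 24 h. The arrays of the 4 times did not overlap and rose from one time to the next. The increase reached 2.02-fold at 24 h (1.01 ± 0.11, adjusted p = 4.46e-05) and was 1.67-fold at 12 h (0.74 ± 0.11, adjusted p = 0.00071). The 6 h value of 0.37 ± 0.11 (adjusted p = 0.0323) lost its call without 0 h replicate 1 (0.169), 0 h replicate 2 (0.138), 6 h replicate 1 (0.0671) or either 24 h array (0.0571 and 0.0572). Centring on the median (0.0631), no variance trend (0.0673), the mean of the probe sets (0.13) and a fit of only the compared times (0.0634) ended it as well. A dimmer Col3a1 probe set gave 0.14, -0.18 and 0.35, none called, and the mean of the probe sets lost the 12 h call (adjusted p = 0.0928).

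Collagen I is built from the products of Col1a1 and Col1a2. Col1a1 was at 717.8 and 566.7 at 0 h, 625.0 and 607.5 at 6 h, 709.6 and 802.5 at 12 h, and 903.9 and 810.4 at 24 h. Both 24 h arrays were above the 0 h arrays, whose own spread was wide. The 1.33-fold increase at 24 h (0.41 ± 0.13, adjusted p = 0.034) was lost without 0 h replicate 2 (0.289), 24 h replicate 1 (0.2) or 24 h replicate 2 (0.0718) and after centring on the median (0.11), with no filter (0.0572) or with no variance trend (0.0625). With the mean of the gene's probe sets it turned to -0.058 (adjusted p = 0.808). Col1a2 was not tested, with signals of 52.5 and 100.8 at 0 h and 61.1 and 74.9 at 24 h.

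Col5a1, a chain of collagen V, which sits inside collagen I fibrils and sets their width, passed the F-test (adjusted p = 0.0208). Its signals were 836.3 and 734.9 at 0 h, 1392.7 and 897.6 at 6 h, 851.3 and 756.4 at 12 h, and 661.9 and 611.6 at 24 h. The 6 h arrays were the highest and the 24 h arrays the lowest. Neither the 6 h value of 0.50 (adjusted p = 0.0686) nor the 24 h value of -0.29 (adjusted p = 0.23) passed against 0 h. A dimmer probe set was at 558.4 and 586.3 at 6 h and 252.5 and 245.7 at 24 h, beside 411.0 and 366.9 at 0 h. It passed in both directions, with 0.53 ± 0.12 at 6 h (adjusted p = 0.0133) and -0.60 ± 0.12 at 24 h (adjusted p = 0.00358). The dimmest of the 3 tested probe sets rose by 0.85 ± 0.26 at 6 h (adjusted p = 0.044), but its -0.32 at 24 h did not pass (adjusted p = 0.385).

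Collagen VI forms beaded filaments near the cell surface and needs the products of Col6a1, Col6a2 and Col6a3. On their brightest probe sets Col6a2 and Col6a3 were higher at 12 h, when 25.2% of all tested genes were called in either direction. None of the 3 was called at 6 or 24 h, when 18.5% and 35.2% of all tested genes were. Col6a2 was at 347.1 and 309.4 at 0 h, 283.9 and 318.6 at 6 h, 521.6 and 456.3 at 12 h, and 453.8 and 382.8 at 24 h. Its 12 h arrays were above all others, by 0.54 ± 0.14 against 0 h (1.46-fold, adjusted p = 0.0174). That call was lost without 0 h replicate 1 (0.056), 0 h replicate 2 (0.131) or 12 h replicate 1 (0.105) and with the mean of the probe sets (0.0544). Col6a3 was dim, at 62.1 and 40.8 at 0 h and 112.9 and 112.1 at 12 h, a change of 0.89 ± 0.24 (adjusted p = 0.0203) that did not come with a pass in the F-test (adjusted p = 0.0501). Its other 6 arrays averaged 6.55 on the log2 scale, under the limit for testing of 6.59, so it was tested only through the 12 h arrays in which it was higher. Its call was lost without 0 h replicate 2 (0.151) or either 12 h array (0.0671 and 0.0673) and with no filter (0.056). Col6a1 lay between 655.5 and 997.3 on all arrays and passed no test.

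**Figure D3:**
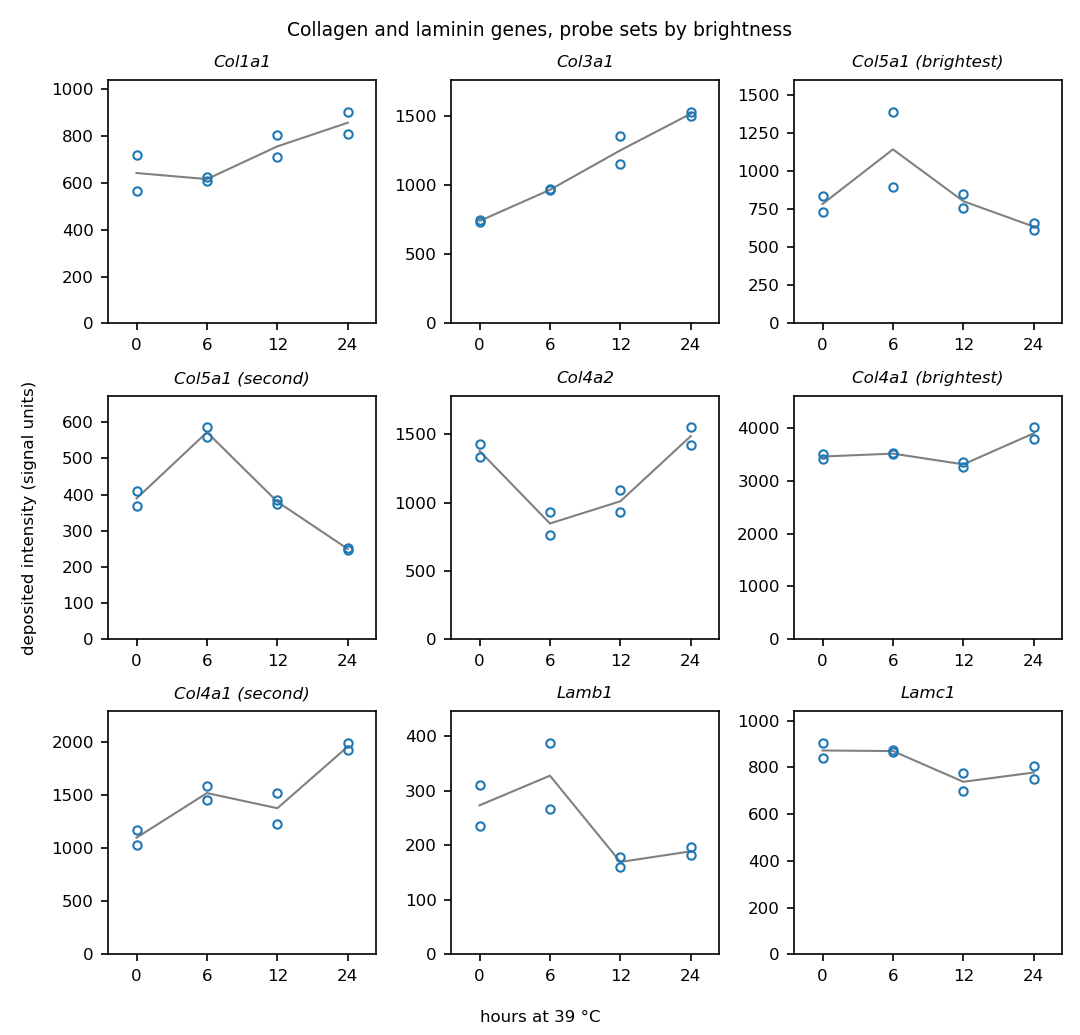
Deposited intensity, in signal units, of collagen and laminin genes at 0, 6, 12 and 24 h at 39 °C, with each array as a point and lines through the means of the 2 arrays of a time. Col3a1 rises from 735.0 and 748.0 to 1532.4 and 1504.3, and Col4a2 dips to 763.7 and 930.1 at 6 h and is back at 1553.0 and 1423.9 at 24 h.

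Of 13 basement membrane genes 8 were tested, and 2 passed the F-test (25%, beside 42% of all tested genes). Against 0 h, 1 fell at 6 h, 2 fell at 12 h and none passed at 24 h. The called shares of 12.5% at 6 h and 25% at 12 h stood beside 18.5% and 25.2% of all tested genes, and at 24 h 35.2% of all tested genes were called. Their median log2 change was 0.01 at 6 h, -0.18 at 12 h and -0.01 at 24 h. The laminin chains Lama1, Lama2 and Lama4 and the nidogens Nid1 and Nid2, which bridge laminin to collagen IV, were too dim to test.

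Col4a1 and Col4a2 encode the 2 chains of the most widespread collagen IV and start 21 bases apart on opposite strands in the RefSeq promoter table. Col4a2 was at 1427.4 and 1331.8 at 0 h, 763.7 and 930.1 at 6 h, 1090.9 and 929.0 at 12 h, and 1553.0 and 1423.9 at 24 h. The arrays of 6 and 12 h were below all 0 h and 24 h arrays, and those of 0 and 24 h overlapped. The fall was 1.62-fold at 6 h (-0.70 ± 0.12, adjusted p = 0.00379) and 1.36-fold at 12 h (-0.45 ± 0.12, adjusted p = 0.0243), with 0.11 at 24 h (adjusted p = 0.555). The 12 h call was lost without 0 h replicate 1 (0.16), 0 h replicate 2 (0.0829) or 12 h replicate 2 (0.158) and with no variance trend (0.0586). From 12 to 24 h the gene rose by 0.55 ± 0.12 (adjusted p = 0.0255), a call lost without 12 h replicate 2 (0.145), either 24 h array (0.179 and 0.114) or either 0 h array (0.0528 each), with no filter (0.0504) and with no variance trend (0.077).

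Col4a1 on its brightest probe set stayed near its starting level. The signals were 3508.3 and 3415.1 at 0 h, 3531.5 and 3502.6 at 6 h, 3366.2 and 3260.8 at 12 h, and 4017.4 and 3788.3 at 24 h. The 24 h arrays were the highest, but the change of 0.17 did not pass (adjusted p = 0.159). A dimmer probe set, at 1025.0 and 1169.4 at 0 h, was at 1580.9 and 1451.4 at 6 h, 1519.8 and 1228.0 at 12 h, and 1917.5 and 1989.0 at 24 h. It rose by 0.46 ± 0.12 at 6 h (adjusted p = 0.0231) and by 0.82 ± 0.12 at 24 h (1.77-fold, adjusted p = 0.000427). Neither Col4a1 probe set was lower at 6 h, when Col4a2 fell, and the difference between the 2 genes was not tested.

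Laminin β1, from Lamb1, joins α chains and laminin γ1, from Lamc1, in the trimers of many basement membranes. Lamb1 was at 311.3 and 235.5 at 0 h, 388.2 and 267.4 at 6 h, 179.3 and 159.8 at 12 h, and 182.1 and 196.1 at 24 h. The arrays of 12 and 24 h were below those of 0 and 6 h. Lamb1 fell by 0.61 on the log2 scale at 12 h (1.53-fold, adjusted p = 0.0414), with -0.47 at 24 h (adjusted p = 0.0872). Its 3 tested probe sets gave -0.61 to -0.05 at 12 h, where only the brightest was called. At 6 h they differed in direction, from -0.35 to 0.29, with none called. The 12 h call was lost without any 1 array of 0, 12 or 24 h (adjusted p from 0.0551 to 0.286) and with the mean of the probe sets (0.148), no filter (0.101) or no variance trend (0.0566). Lamc1 was at 905.6 and 839.5 at 0 h, 865.3 and 874.6 at 6 h, 701.1 and 776.2 at 12 h, and 749.9 and 806.5 at 24 h, and its lowest value, -0.23 at 12 h, did not pass (adjusted p = 0.14). Lamb2, Lama5, Col18a1 and Hspg2, the gene of perlecan, passed no test against 0 h, with time means within 0.44 of each other on the log2 scale.

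Proteoglycans gave the largest change among the 33 genes at 24 h. Decorin, from Dcn, is a small leucine-rich proteoglycan that binds collagen fibrils and limits their growth. Its signals were 1471.3 and 1410.2 at 0 h, 1292.0 and 1122.7 at 6 h, 1466.0 and 1403.1 at 12 h, and 6273.5 and 5422.6 at 24 h. The first 12 h showed no called change, and both 24 h arrays were far above the other 6. The rise from 0 to 24 h was 2.001 ± 0.11 on the log2 scale (adjusted p = 7.71e-07), and from 12 to 24 h it was 4.02-fold (adjusted p = 1.27e-05). Both calls held under all 18 alternatives, from 1.90 to 2.11 for each. Biglycan, from Bgn, a relative of decorin, was at 3112.8 and 2894.1 at 0 h, 3685.8 and 3196.3 at 6 h, 4261.3 and 3840.2 at 12 h, and 4570.5 and 4419.7 at 24 h. It rose 1.35-fold at 12 h (0.43 ± 0.10, adjusted p = 0.0115) and 1.49-fold at 24 h (0.58 ± 0.10, adjusted p = 0.00141). The 12 h call was lost without 0 h replicate 1 (0.0508), 0 h replicate 2 (0.108) or 12 h replicate 1 (0.0834).

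Matrix glycoproteins included both rising and falling genes. Of 9 tested genes 8 passed the F-test, beside 42% of all tested genes. Against 0 h 5 were called at 6 h, 4 at 12 h and 7 at 24 h, beside 18.5%, 25.2% and 35.2% of all tested genes. Fn1, Thbs1 and Thbs2 fell at all 3 times and Fbln2 at 24 h. Tnc rose at 6 and 24 h, Sparc at 6 and 12 h, and Ecm1 and Matn2 at 24 h. The median log2 change of the 9 genes was -0.20 at 6 h, -0.14 at 12 h and 0.29 at 24 h.

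Fibronectin, from Fn1, is the adhesive glycoprotein on which cells assemble other matrix. Its signals were 8752.8 and 8610.0 at 0 h, 6872.9 and 7212.6 at 6 h, 4876.5 and 4700.0 at 12 h, and 3495.9 and 3880.4 at 24 h. The 4 times did not overlap, and each was lower than the one before. The fall was 1.81-fold at 12 h (-0.86 ± 0.09, adjusted p = 0.000109) and 2.35-fold at 24 h (-1.23 ± 0.09, adjusted p = 4.41e-06), both called under all 18 alternatives. The 6 h value of -0.30 ± 0.09 (adjusted p = 0.0407) was lost without any 1 array other than 6 h replicate 2, with adjusted p from 0.0548 to 0.213 in those 7 fits. No filter (0.0774), no variance trend (0.104) and a fit of only the compared times (0.0921) ended it too.

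The thrombospondins are secreted glycoproteins that bind cells and matrix and restrain the growth of blood vessels. Thbs1 was at 3805.7 and 3568.7 at 0 h, 1838.0 and 1741.1 at 6 h, 1841.1 and 1617.9 at 12 h, and 2913.6 and 2554.7 at 24 h. It was low at 6 and 12 h and partly back at 24 h, with no overlap between these 3 levels. The fall was 2.05-fold at 6 h (-1.03 ± 0.11, adjusted p = 0.000122), 2.12-fold at 12 h (adjusted p = 6.34e-05) and 1.35-fold at 24 h (adjusted p = 0.00924). From 12 to 24 h it rose by 0.65 ± 0.11 (adjusted p = 0.00646). The 24 h fall was lost without 0 h replicate 1 (0.0892) or 24 h replicate 2 (0.103), and the later rise without 12 h replicate 2 (0.0587) or 24 h replicate 1 (0.0793). A dimmer Thbs1 probe set fell at 6 and 12 h, by 1.13 and 0.91, gave -0.12 at 24 h (adjusted p = 0.329) and rose by 0.79 from 12 to 24 h (adjusted p = 0.00122).

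Thbs2 was at 396.9 and 348.3 at 0 h, 165.4 and 216.2 at 6 h, 117.5 and 131.7 at 12 h, and 190.4 and 207.0 at 24 h. Every later array was below both 0 h arrays, and those of 12 h were the lowest. The fall was 1.86-fold at 6 h (-0.90 ± 0.17, adjusted p = 0.00528), 2.69-fold at 12 h (-1.43 ± 0.17, adjusted p = 0.000242) and 1.79-fold at 24 h (adjusted p = 0.00347). A dimmer Thbs2 probe set gave -0.22, 0.12 and -0.47, none called. With the mean of the probe sets the 6 h call was lost (0.0837) and the 12 h value shrank to -0.65, and without 0 h replicate 1 the 6 h call was lost as well (0.0663).

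Tenascin-C, from Tnc, is a glycoprotein of developing and injured tissue that modulates cell adhesion. Its signals were 258.6 and 296.3 at 0 h, 512.1 and 369.9 at 6 h, 307.7 and 205.5 at 12 h, and 691.5 and 678.3 at 24 h. The 24 h arrays were the highest, those of 12 h fell on either side of the 0 h arrays, and those of 6 h lay between. The rise was 2.37-fold at 24 h (1.24 ± 0.19, adjusted p = 0.000613) and 2.58-fold from 12 to 24 h (1.37 ± 0.19, adjusted p = 0.00331), both called under all 18 alternatives. The 6 h value of 0.61 ± 0.19 (adjusted p = 0.0477) was lost without 0 h replicate 1 (0.248), 0 h replicate 2 (0.118), 6 h replicate 1 (0.244) or either 24 h array (0.0745 and 0.0743). It was also lost after quantile normalization (0.0595) or centring on the median (0.0607), with no filter (0.106) and with no variance trend (0.0857). The drop from 6 to 12 h of -0.74 ± 0.19 (adjusted p = 0.0396) was lost without 6 h replicate 1 (0.16), 12 h replicate 2 (0.22) or any array of 0 or 24 h (0.066 to 0.0681), with no filter (0.0896), with no variance trend (0.0809) and with only these times fitted (0.12).

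Fibulin-2, from Fbln2, which links basement membrane and elastic fibre proteins, was at 3659.0 and 3316.8 at 0 h, 3418.6 and 2702.3 at 6 h, 3117.1 and 2551.5 at 12 h, and 2316.0 and 1877.3 at 24 h. The 24 h arrays were below all others, and those of 6 h overlapped both the 0 h and the 12 h arrays. The fall at 24 h was 1.66-fold (-0.73 ± 0.14, adjusted p = 0.00268), and the 12 h value of -0.30 did not pass (adjusted p = 0.154). Fbln1, a relative, passed no test against 0 h.

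Ecm1, a secreted glycoprotein that binds perlecan, was at 3413.1 and 3296.6 at 0 h, 3749.2 and 3454.5 at 6 h, 3825.0 and 3905.7 at 12 h, and 5169.4 and 5156.3 at 24 h. Its 24 h arrays stood above all others, 1.54-fold over 0 h (0.62 ± 0.09, adjusted p = 0.000348). Matn2, a filament-forming adaptor protein of the matrix, was at 147.7 and 142.7 at 0 h, 99.4 and 98.0 at 6 h, 135.7 and 124.8 at 12 h, and 287.5 and 225.0 at 24 h. The 6 h arrays were the lowest and the 24 h arrays the highest. Its 6 h value of -0.47 did not pass (adjusted p = 0.0997), and the 24 h rise of 1.65-fold (0.73 ± 0.18, adjusted p = 0.0108) was lost without 0 h replicate 1 (0.0558), 0 h replicate 2 (0.0656) or 24 h replicate 1 (0.123).

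Sparc encodes osteonectin, a collagen-binding protein of cells that remodel their matrix. It was at 8318.1 and 8275.6 at 0 h, 11286.6 and 10040.4 at 6 h, 12298.3 and 10948.4 at 12 h, and 11141.2 and 9252.3 at 24 h. All later arrays were above the 0 h arrays and the later times overlapped each other. Sparc rose by 0.36 ± 0.11 at 6 h (adjusted p = 0.047) and by 0.48 ± 0.11 at 12 h (adjusted p = 0.00976), with 0.29 at 24 h (adjusted p = 0.0676). Without 0 h replicate 1, 0 h replicate 2 or 12 h replicate 1 the 12 h call was lost (0.0708, 0.072 and 0.0775), and the 6 h call was lost without these 3 (0.197, 0.194 and 0.0541), 6 h replicate 1 (0.141) or 12 h replicate 2 (0.0539). It was also lost after quantile normalization (0.0561) or centring on the median (0.0848), with no filter (0.121), with no variance trend (0.112) and with only the compared times fitted (0.0633).

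**Figure D4:**
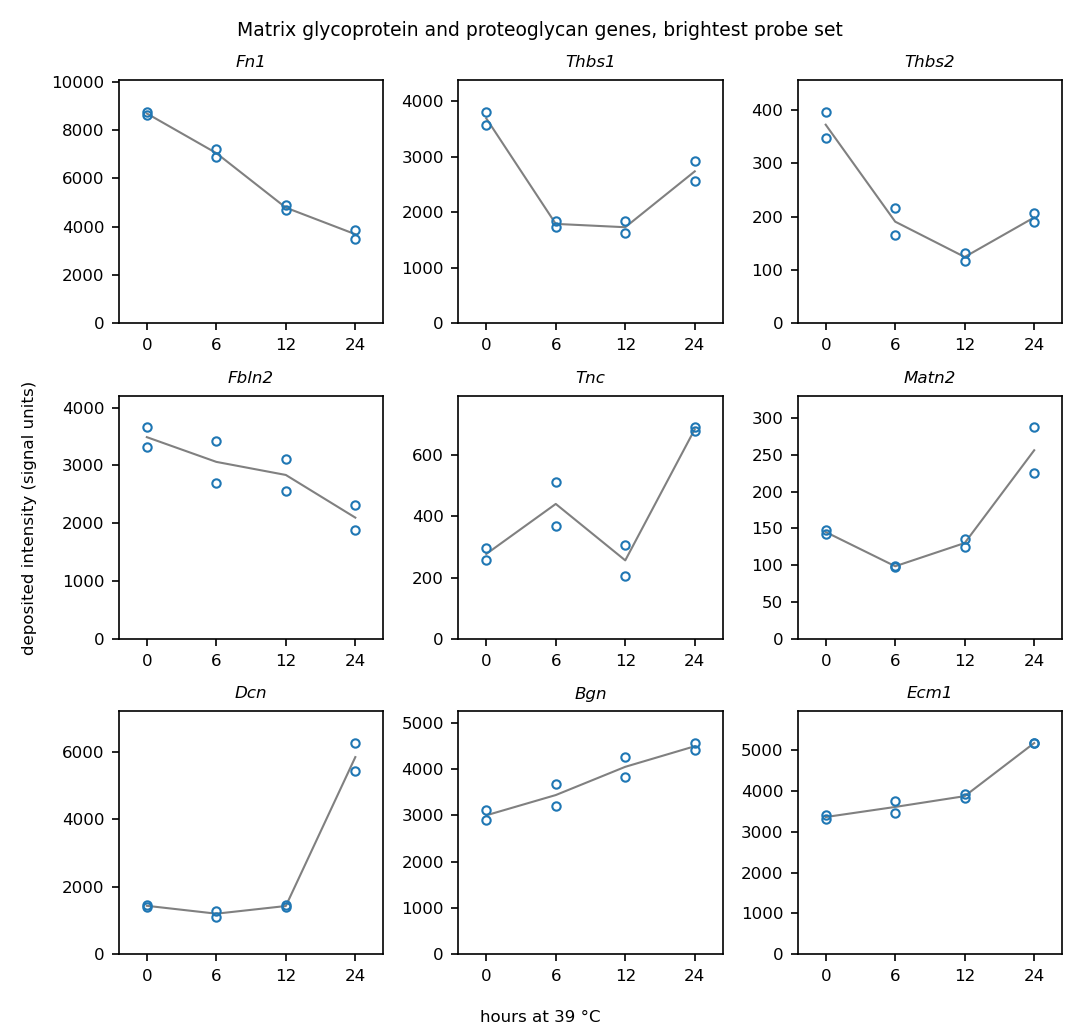
Deposited intensity, in signal units, of proteoglycan and glycoprotein genes at 0, 6, 12 and 24 h at 39 °C, with single arrays as points and lines through the means of the 2 arrays of a time. Fn1 declines at each step to 3495.9 and 3880.4, Thbs1 is lowest at 6 and 12 h, and Dcn stays between 1122.7 and 1471.3 until 12 h and then reaches 6273.5 and 5422.6.

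Elastic fibre genes were mostly dim: 2 of the 4 on the array were tested. Efemp1, which encodes fibulin-3, was at 707.7 and 765.4 at 0 h, 788.4 and 1014.6 at 6 h, 1005.6 and 1081.2 at 12 h, and 1315.7 and 1438.8 at 24 h. Every later array was above the 0 h arrays and the 24 h arrays were the highest. It rose 1.4-fold at 12 h (0.49 ± 0.13, adjusted p = 0.0179) and 1.84-fold at 24 h (0.88 ± 0.13, adjusted p = 0.000396). The 12 h call was lost without 0 h replicate 1 (0.131), 0 h replicate 2 (0.0643) or 12 h replicate 2 (0.0963). Eln, the gene of elastin, lay between 112.8 and 183.3 and passed no test against 0 h.

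Lox, a lysyl oxidase that cross-links collagen and elastin outside the cell, was the 1 tested gene of its kind. On its brightest probe set it was at 283.3 and 296.8 at 0 h, 214.6 and 255.9 at 6 h, 215.3 and 229.4 at 12 h, and 310.3 and 294.1 at 24 h. The 6 and 12 h arrays were below the others, but no test against 0 h was passed. A dimmer probe set, at 295.2 and 264.6 at 0 h and 149.8 and 101.1 at 12 h, fell 2.07-fold at 12 h (-1.05 ± 0.19, adjusted p = 0.00245). No matrix gene had probe sets called in opposite directions in the same comparison against 0 h.

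Between neighbouring times, 4 of the 33 genes were called from 6 to 12 h, with Col6a2 higher and Fn1, Tnc and Lamb1 lower, where 4.93% of all tested genes were higher and 3.58% lower. From 12 to 24 h 8 were called, with Dcn, Tnc, Thbs1, Ecm1, Matn2 and Col4a2 higher and P4ha1 and Fn1 lower, where 4.09% of all tested genes were higher and 3.27% lower. The count from 6 to 12 h was 1 without 12 h replicate 2, and that from 12 to 24 h was 2 without 12 h replicate 2 or without 24 h replicate 1. Of these 12 calls, those of Dcn and Tnc from 12 to 24 h held under all 18 alternatives. The Lamb1 drop from 6 to 12 h was lost without 6 h replicate 1 (0.109) or either 12 h array (0.0668 and 0.12), and the Col6a2 rise without 6 h replicate 1 (0.0579) or either 12 h array (0.0978 and 0.0517). The Ecm1 rise from 12 to 24 h was lost without any 1 array of 0, 12 or 24 h, with values of 0.40 to 0.43. So was the Fn1 drop from 12 to 24 h, with -0.45 to -0.30. Matn2 lost its call without any 1 array of 12 or 24 h, with 0.70 to 1.02. A fit of only the compared times ended the 6 to 12 h calls of Fn1 (adjusted p = 0.0528), Lamb1 (0.0754), Col6a2 (0.0725) and Tnc (0.12). No filter ended the calls of Lamb1 (0.0694), Matn2 (0.0631) and Fn1 from 12 to 24 h (0.0682). The mean of the probe sets ended those of Lamb1 (0.157) and Col6a2 (0.0516). No variance trend ended those of Ecm1 (0.077) and Fn1 from 12 to 24 h (0.105).

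**Figure D5:**
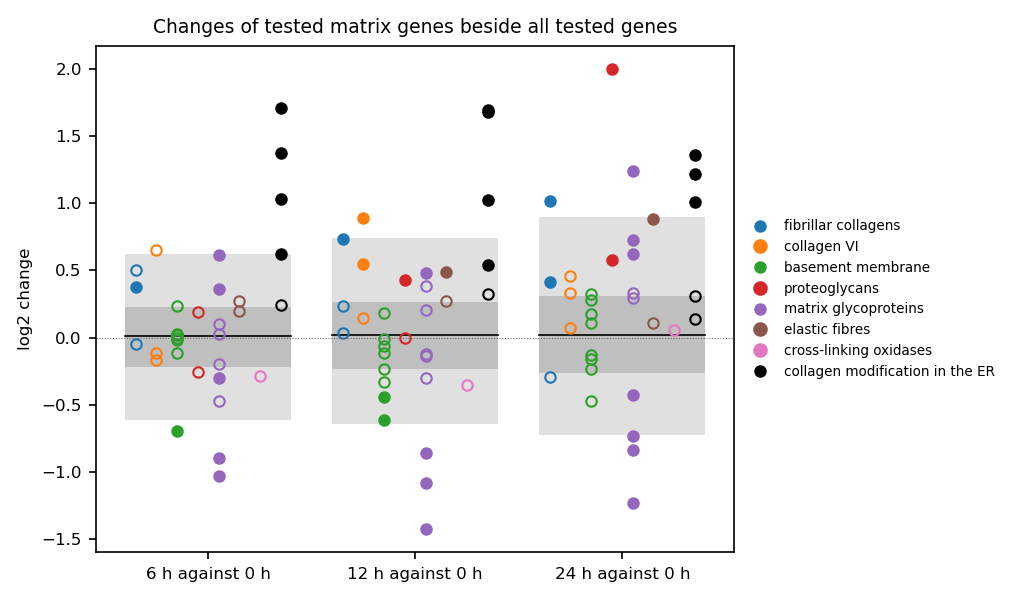
Log2 change of each tested matrix gene at 6, 12 and 24 h against 0 h, coloured by role, filled where called and open where not. The grey bands behind span the quantiles 0.05 to 0.95 (light) and 0.25 to 0.75 (dark) of all 7707 tested genes, and the black line is their median. Matrix genes lie on both sides of 0 at every time, with Dcn the highest at 24 h at 2.001 and Fn1 the lowest at -1.23.

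Other genes of the same pathways were read from a list of 122 genes that holds further collagens, laminins, glycoproteins, collagen-processing enzymes, export factors and matrix receptors. Of these 105 were on the array and 50 were tested, and 23 passed the F-test. At 6 h 3 were higher and 3 lower, at 12 h 6 and 5, and at 24 h 11 and 8. Called in either direction were thus 12%, 22% and 38% of the 50, beside 18.5%, 25.2% and 35.2% of all tested genes, and 46% beside 42% in the F-test, so these shares are near the background. Among 16 tested matrix receptors, 3 were higher and 4 lower at 24 h, and among 12 tested collagen-processing genes outside the list above, 2 were higher and 2 lower.

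Of these further genes, 4 passed the F-test with time means at least 2-fold apart. Creb3l2, a transcription factor known to switch on genes of collagen export, was at 335.8 and 311.3 at 0 h and 773.5 and 759.5 at 24 h, a rise of 1.19 ± 0.12 on the log2 scale (adjusted p = 3.48e-05). Pcolce2, an enhancer of the protease that trims procollagen, went the other way, from 985 and 933 to 332.4 and 368.3, a change of -1.40 ± 0.11 (adjusted p = 5.9e-06). The integrin subunit Itgb5, part of a vitronectin receptor, rose from 1082.2 and 895.5 to 2044.4 and 1961 (1.01 ± 0.12, adjusted p = 0.000135). Col14a1, a collagen that lies on the surface of collagen I fibrils, was dim at 52.5 and 79.6 and reached 176.3 and 202.1 (1.28 ± 0.24, adjusted p = 0.00181). Its arrays of 0, 6 and 12 h averaged 6.52 on the log2 scale, under the limit for testing of 6.59, so it was tested only through the 24 h arrays, and this choice favours a rise there.

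Markers of other testicular cell types were read beside these changes. The summed signal of 7 fibroblast markers was 2209.7 to 2491.6 at 0 h and 2144.7 to 2269.4 at 24 h. The 1 tested marker, Pdpn, was not called. Cd34, Fap, Meox1, Pdgfra, Pdgfrb and Thy1 were too dim to test, so most of this sum came from Pdpn. For 7 peritubular myoid and smooth muscle markers it was 535.4 to 604.6 and 507.7 to 624.2, with none of 3 tested genes called. None of 8 endothelial markers was bright enough to test, and their sums were 227 to 235.5 and 252.8 to 311.1. The endothelial sums were highest at 6 h, at 295.1 to 370.7. The fibroblast and peritubular sums of 0 and 24 h thus overlapped.

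The sums of the germ cell, Leydig, and macrophage and blood lists were higher at 24 h than at 0 h. The 7 germ cell markers summed to 459.7 to 519.7 at 0 h and 1408.6 to 1415.7 at 24 h. Nearly all of this rise came from Kit, the 1 tested gene of the list, which was at 252.7 and 348.8 and then at 1224.7 and 1222.3. The other 6, Ddx4 and Dazl among them, were too dim to test. The 4 Leydig markers summed to 96.8 to 157.9 and 248 to 326.1, with Star higher by 1.18 (adjusted p = 0.00327) and Cyp11a1, Cyp17a1 and Hsd3b1 untested. The 7 macrophage and blood markers summed to 557.9 to 658.2 and 665.4 to 703.6. Of 3 tested, Cd68 was higher by 0.59 (adjusted p = 0.0306), and Ptprc was not tested. The other 2 tested markers were not called and both lay below 0, as the median log2 change of the 3 was -0.13. The Cd68 call was lost when 0 h replicate 1 (0.221) or either 24 h array (0.153 and 0.098) was left out, after quantile normalization (0.0617) or centring on the median (0.0677), and with no filter (0.0779). The part of other cell types in the matrix changes was not tested.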

How the data were processed

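Total RNA of TTE3 cells was labelled and hybridised to 1 array per sample, and samples were grouped by the hours in their titles. The series' value table holds linear intensities per probe set (0.1 to 38130.2), deposited by the authors; the software that made them is not given in the sources used here. After 64 control probe sets were removed, 22626 remained, of which 20380 had 1 gene symbol in the array annotation, 691 several and 1555 none. Symbols were checked against RefSeq names of GRCm38.p6, and the 2 probe sets shared with a second symbol were not used.

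Intensities were used as deposited, since the arrays' median log2 values spanned 0.14. An offset of 22, the 20th percentile, was added before log2. Probe sets with a mean log2 below the 40th percentile were left out, which left 13576. The 4 times were fitted as groups in limma 3.58.1 (R 4.3.3) with a variance trend, and two-sided contrasts and the F-test were adjusted by Benjamini-Hochberg. Errors are standard errors from this fit; the number of arrays limits the precision. The steps were tested on simulated data. Genes were described on every array where they passed the F-test with time means at least 1.5-fold apart, and collagen I, collagen IV, Fn1, Lamc1 and Serpinh1 in any case. Further pathway genes were named where they passed with means at least 2-fold apart. Other genes are named because they were called or mark the heating or a cell type. Alternatives varied scaling, offset, filter, variance trend, replicate block, probe set choice, the times fitted and the arrays. The members and lists were chosen with earlier results of these data known.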

Additional observations from a re-analysis of the deposited data

How the results depend on the processing

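Each result was recomputed with 1 choice changed at a time. The count of called probe sets from 6 to 12 h, 1130 in the reported fit, was 644 with no filter, 607 with no variance trend and 240 with only the compared times fitted, and the matrix genes called there, 4 in the reported fit, were 2 with no filter and 0 with only the compared times, where limma gave 7 at an unadjusted p below 0.05. From 12 to 24 h the 934 probe sets became 529 with no filter and 369 with no variance trend, and the 8 matrix genes became 4 in each of these fits. Leaving out 1 array at a time gave, for probe sets, 3303 to 6608 in the F-test, 836 to 3003 at 6 h, 1523 to 4148 at 12 h and 2595 to 5191 at 24 h against 0 h, 330 to 1552 from 6 to 12 h and 84 to 1645 from 12 to 24 h. For matrix genes it gave 18 to 21 in the F-test, 6 to 12 at 6 h, 7 to 16 at 12 h and 13 to 18 at 24 h against 0 h, 1 to 6 from 6 to 12 h and 2 to 12 from 12 to 24 h. The lowest probe set counts against 0 h came without 0 h replicate 1. Col1a1 at 24 h changed sign with the mean of its probe sets, to -0.058. Over single genes and comparisons, 3650 values kept their side of the threshold, 191 lost a call and 63 gained one, and 1 called value reversed. Values that were not called could change sign without being counted as reversed, as Col18a1 did at 6 h (-0.37 to 0.33 across the fits). The cause of the lost calls was not tested. With the replicate block the matrix genes called were 22 in the F-test, 12, 16 and 17 against 0 h, 6 from 6 to 12 h and 10 from 12 to 24 h, beside 5982 probe sets in the F-test; replicate differences correlated between times by 0.05 to 0.18, and with 2 numbers the arrays share only a number. Signal over background limits the 14 untested genes.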
